A study of Homo sapiens with 6 samples.

Results

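Aminoacyl-tRNA synthetases are the enzymes that join each amino acid to its transfer RNA, the step that precedes protein synthesis on the ribosome. Human cells keep separate nuclear genes for most of the cytosolic enzymes and for most of the mitochondrial ones, and several cytosolic enzymes sit together in a multisynthetase complex. Many cytosolic synthetase genes are known targets of ATF4, a transcription factor whose translation increases when cells lack amino acids or are otherwise stressed. ATF4 pairs with C/EBP proteins on a composite DNA element, whereas MYCN, a transcription factor of the MYC family and a known oncogene in neuroblastoma, binds E-boxes together with MAX.

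The genes described here are 35 aminoacyl-tRNA synthetase genes among the 60651 gene identifiers of the count files. They were chosen by name and function, with earlier results of these data known. They comprise 19 cytosolic enzymes, some of which also serve mitochondria, and 16 mitochondrial enzymes with names ending in 2. They were measured by total RNA sequencing of SK-N-AS, a human neuroblastoma cell line without *MYCN* amplification, in which MYCN can be switched on with tetracycline. Both groups carried the stably transfected tetracycline repressor system and the *MYCN* transgene and were kept as single clones under G418 and blasticidin. The 3 libraries labelled Tet (MYCN-induced) and the 3 labelled ETOH (control) were all taken at 120 h. The study describes 3 independent experiments per condition, and the labels do not say which clone or clones were used. The comparison asks how synthetase transcripts stand in cells with MYCN switched on. Every MYCN-induced library was also treated with tetracycline and no control was. Effects of the drug and of MYCN therefore cannot be told apart in these libraries.

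The libraries held between 64500589 and 102249336 counted read pairs. *MYCN* stood at 30.3, 35.5 and 32.4 CPM (counts scaled to a common library size by TMM factors) in the controls and at 211, 221 and 199 in the MYCN-induced libraries, so the groups did not overlap. Its log2 fold change was 2.68 (SE 0.08, adjusted p = 4.155e-05, edgeR). MYCN-induced replicate 3 stood apart from the other libraries, at 69.1 on the first principal component against 14.4 and 13.1 for MYCN-induced replicates 1 and 2 and −40.3 to −25.9 for the controls. Many results are therefore given with and without it, and all others include it. The markers of noradrenergic neuroblastoma were uneven: *HAND2* (349 to 559 CPM) and *GATA3* (99.9 to 144) were abundant in every library, *DBH* was low (3.23 to 9.20), and *TH* (0.665 to 1.58) and *DDC* were near 0. The mesenchymal marker *VIM* was abundant as well (360 to 475 CPM), and *CD44* was at 0. Summed markers were near 0 for endothelial cells (0.770 to 1.43 CPM) and epithelial cells (0.290 to 0.586) and low for leukocytes (5.54 to 7.03), with *CD3E* at 0 throughout. Of the 9 tested mesenchymal markers, 7 had a log2 fold change above 0 (median 0.28). At the threshold none was higher by edgeR, and *FN1* was lower (−0.71, adjusted p = 0.033, edgeR). At an unadjusted p under 0.05 (edgeR), 5 were higher and 2 lower, and by DESeq2 3 were higher and 1 lower. Of the 9 tested noradrenergic markers, 4 were above 0 (median −0.09), and none was higher by edgeR at either p or by DESeq2. *CHGA* was lower (−1.21, adjusted p = 0.049, edgeR), 3 were lower at an unadjusted p under 0.05 (edgeR), and 3 by DESeq2. Of all tested genes, 8.13% were higher and 10.6% lower at that unadjusted p, and 3.11% and 4.12% by DESeq2. At the edgeR threshold 1.02% were higher and 2.38% lower. *FN1* lost its call without any 1 of the libraries other than MYCN-induced replicate 3 (adjusted p from 0.059 to 0.168), as did *CHGA* except without control replicate 2 (0.034) or that library (0.047, edgeR). In bulk RNA, a change in the number of cells expressing a gene and a change in RNA per cell cannot be told apart.

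All 35 synthetase genes passed the filter of at least 10 counts in at least 3 libraries. Per unit of exon length, in TPM (counts divided by exon length and scaled to the same total in each library), the cytosolic enzymes were the more abundant group, summing to 755, 713 and 669 TPM in the controls against 246, 235 and 223 TPM for the mitochondrial enzymes. The most abundant cytosolic member in the controls was *RARS1*, the arginine enzyme of the multisynthetase complex (86.3 TPM), and the least abundant was *CARS1*, the cysteine enzyme (3.74 TPM). Among the mitochondrial members, the isoleucine enzyme *IARS2* was the most abundant (65.8 TPM) and the valine enzyme *VARS2* the least (1.99 TPM). The length used is that of all annotated exons of a gene, from 2147 to 20639 bases, so levels are only roughly comparable between genes.

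**Figure D1:**
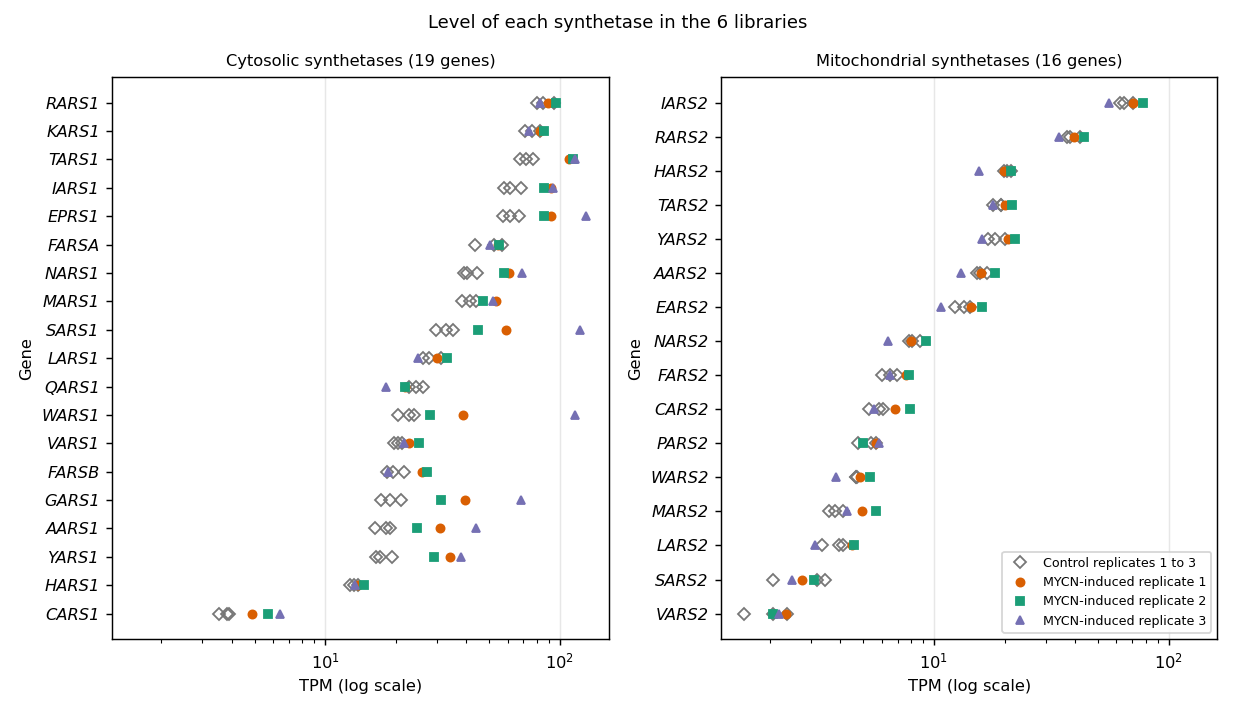
TPM (log axis) of the 19 cytosolic and 16 mitochondrial synthetase genes in each of the 3 control (open diamonds) and 3 MYCN-induced libraries (filled symbols), sorted by the control mean. Cytosolic genes run from *RARS1* (86.3 TPM in controls) to *CARS1* (3.74 TPM), and the induced symbols of *WARS1*, *SARS1* and *GARS1* reach far to the right of their controls.

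Promoter sequences are shown first because an ATF4 element is known in several synthetase genes and the induced factor, MYCN, binds DNA itself. RefSeq (GRCh38.p14) promoters, from 250 bases before to 50 bases after a transcript's start, were matched for 30 of the 35 members, 16 cytosolic and 14 mitochondrial, and 9 members had more than one start. The promoters of *YARS1*, *LARS1*, *VARS1*, *AARS2* and *VARS2* were not analysed here. The composite element TGATGCAA, or its reverse complement TTGCATCA, was found in 6 of the 16 matched cytosolic genes and in 0 of the 14 matched mitochondrial genes. Among all 27305 genes with a promoter, 1.08% held it. Of 24 other ATF4 pathway genes, described below, 19 were matched and 2 held the element (*CEBPG* and *CHAC1*). All 6 synthetase genes with it were on the list of 12 cytosolic synthetases described as ATF4 targets, of which 10 were matched. Each is shown as 30 bases around the match, in the direction of the gene, with the element in capitals:
AARS1: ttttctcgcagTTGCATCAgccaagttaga
CARS1: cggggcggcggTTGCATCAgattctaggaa
IARS1: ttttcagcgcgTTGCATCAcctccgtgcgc
MARS1: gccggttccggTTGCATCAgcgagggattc
NARS1: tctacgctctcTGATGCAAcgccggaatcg
TARS1: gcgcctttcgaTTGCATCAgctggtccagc

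These windows lie at chr16:70289675-70289704 (minus strand) for *AARS1*, chr11:3057407-3057436 (minus) for *CARS1*, chr9:92293692-92293721 (minus) for *IARS1*, chr12:57488053-57488082 (plus) for *MARS1*, chr18:57621804-57621833 (minus) for *NARS1* and chr5:33440956-33440985 (plus) for *TARS1*. The first base of the element is 187, 2, 13 and 4 bases before the transcript start in *AARS1*, *CARS1*, *IARS1* and *MARS1*, and 15 and 3 bases after it, in transcribed sequence, in *NARS1* and *TARS1*. In 5 of the 6 windows the letters read TTGCATCA on the gene's strand, and in *NARS1* they read TGATGCAA. *WARS1*, *SARS1* and *EPRS1*, described below, had matched promoters without these letters. An open sixth base (TGATGNAA on either strand), tried after the promoters had been seen, added *GARS1* and the mitochondrial *YARS2* and was present in 4.46% of all genes.

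The E-box CACGTG reads the same on both strands. It was found in 3 of the 14 matched mitochondrial genes (*CARS2*, *EARS2* and *MARS2*) and in 1 of the 16 matched cytosolic genes (*IARS1*). It was present in 8.77% of all genes with a promoter and in 11.46% of the tested genes with one. It is printed in the same way, since MYCN is the induced factor:
IARS1: tggttcgttttcCACGTGgaggcgcaaaac
CARS2: tgctgggatgcaCACGTGcttcgctaacag
EARS2: cagggagaagccCACGTGtgctattccatc
MARS2: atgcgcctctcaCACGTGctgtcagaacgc

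They lie at chr9:92293866-92293895 (minus strand), chr13:110706501-110706530 (minus), chr16:23557348-23557377 (minus) and chr2:197705346-197705375 (plus), and start 186, 3, 15 and 11 bases before the transcript start. A match of letters is a description of the sequence, and binding was not measured.

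Among the cytosolic enzymes, 3 of 19 were higher in the MYCN-induced libraries at an adjusted p under 0.05 (edgeR), namely *YARS1*, *TARS1* and *IARS1*. The same threshold was passed by 298 of the 29086 tested genes in this direction (1.02%). No cytosolic enzyme was lower at that threshold by edgeR or by DESeq2, where 2.38% of all genes were lower by edgeR. At an unadjusted p under 0.05, 12 cytosolic enzymes were higher and 1 was lower (edgeR), beside 8.13% and 10.6% of all tested genes. The log2 fold change was above 0 in 18 of 19 cytosolic genes, with a median of 0.56 and a range from −0.24 to 1.55, against 49.9% of all tested genes above 0 and a median of −0.00038 over them. In 13 of 19 every induced library was above every control, and in 1 every induced library was below, where 11.5% and 14.7% of all tested genes showed such separations. Leaving out any single control, or MYCN-induced replicate 1, ended all 3 calls, and leaving out MYCN-induced replicate 3 raised the number of higher cytosolic genes to 9, against 3.68% of all genes.

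*YARS1* (ENSG00000134684.12, chr1:32775237-32817380 in GRCh38), the tyrosine enzyme, was measured at 102, 96.2 and 96.0 CPM in the controls and at 185, 145 and 244 CPM after induction. All induced libraries exceeded all controls. Its log2 fold change was 0.97 (SE 0.17, adjusted p = 0.026, edgeR), and 0.76 (SE 0.10, adjusted p = 0.0077) without MYCN-induced replicate 3. The adjusted p was 0.102, 0.141 and 0.117 without control replicate 1, 2 or 3 and 0.085 without MYCN-induced replicate 1.

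*TARS1* (ENSG00000113407.14, chr5:33440696-33468091), the threonine enzyme, had control values of 189, 187 and 185 CPM and induced values of 277, 263 and 349 CPM. The controls lay close together and well below the lowest induced library. The log2 fold change was 0.66 (SE 0.11, adjusted p = 0.021, edgeR), and 0.54 (SE 0.05, adjusted p = 0.0028) without MYCN-induced replicate 3. Leaving out control replicate 1, 2 or 3 gave an adjusted p of 0.090, 0.121 or 0.09999, and leaving out MYCN-induced replicate 1 gave 0.059.

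*IARS1* (ENSG00000196305.18, chr9:92210207-92293756), the isoleucine enzyme and a subunit of the multisynthetase complex, stood at 292, 279 and 272 CPM in the controls and at 404, 347 and 490 CPM in the induced libraries. Its groups did not overlap either. At a log2 fold change of 0.56 (SE 0.12) its adjusted p of 0.04998 was barely under the threshold (edgeR), and it was 0.058 when only genes with a mean of at least 100 counts were tested. It was 0.145, 0.222 and 0.182 without control replicate 1, 2 or 3, 0.127 without MYCN-induced replicate 1, and 0.019 without MYCN-induced replicate 3.

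The cytosolic genes with the largest fitted changes did not pass the threshold, and their induced libraries were far apart. *WARS1*, the tryptophan enzyme (ENSG00000140105.18, chr14:100333790-100376805), was at 88.1, 89.0 and 83.4 CPM in the controls and at 146, 97.1 and 520 CPM in the induced libraries. Induced replicate 2 was barely above the controls while replicate 3 was several times higher. The log2 fold change was 1.55 (SE 0.55, adjusted p = 0.183, edgeR), and 0.49 (SE 0.15, adjusted p = 0.098) without MYCN-induced replicate 3. Of its exon bases, 10.6% are shared with other genes, the largest overlap being with an antisense gene, and the file headers describe counting without strand.

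*GARS1*, the glycine enzyme, whose single gene serves both the cytosol and mitochondria, was measured at 211, 201 and 192 CPM in the controls and at 409, 294 and 839 CPM after induction. Its control and induced libraries were well separated. The log2 fold change was 1.35 (SE 0.34, adjusted p = 0.078, edgeR), and it was 0.81 (SE 0.13, adjusted p = 0.015) without MYCN-induced replicate 3.

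*SARS1*, the serine enzyme, showed 78.3, 77.6 and 72.9 CPM in the controls and 134, 94.0 and 330 CPM in the induced libraries. The order of the induced libraries was that of *WARS1* and *GARS1*, with replicate 3 highest and replicate 2 lowest. Its log2 fold change was 1.29 (SE 0.40, adjusted p = 0.139, edgeR), and 0.59 (SE 0.14, adjusted p = 0.046) without MYCN-induced replicate 3.

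*AARS1*, the alanine enzyme, was found at 112, 114 and 107 CPM in the controls and at 187, 138 and 316 CPM after induction. Again no induced library fell within the control range. Its log2 fold change of 0.94 (SE 0.26) had an adjusted p of 0.101 (edgeR), and without MYCN-induced replicate 3 it was 0.56 (SE 0.12, adjusted p = 0.037).

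*EPRS1*, a fused enzyme for glutamate and proline, *NARS1*, the asparagine enzyme, and *CARS1* had log2 fold changes of 0.77, 0.63 and 0.62 with adjusted p of 0.112, 0.063 and 0.099 (edgeR). All 3 had induced libraries above every control. Without MYCN-induced replicate 3 the log2 fold changes were 0.43, 0.44 and 0.40, with adjusted p of 0.016, 0.012 and 0.057 (edgeR). *CARS1*, the scarcest cytosolic member, was at 20.4, 24.0 and 24.4 CPM in the controls and at 29.0, 31.4 and 45.3 CPM in the induced libraries. *MARS1*, the methionine enzyme, had a smaller difference of 0.32 (SE 0.12, adjusted p = 0.193, edgeR), and 13.3% of its exon bases are shared with other genes.

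**Figure D2:**
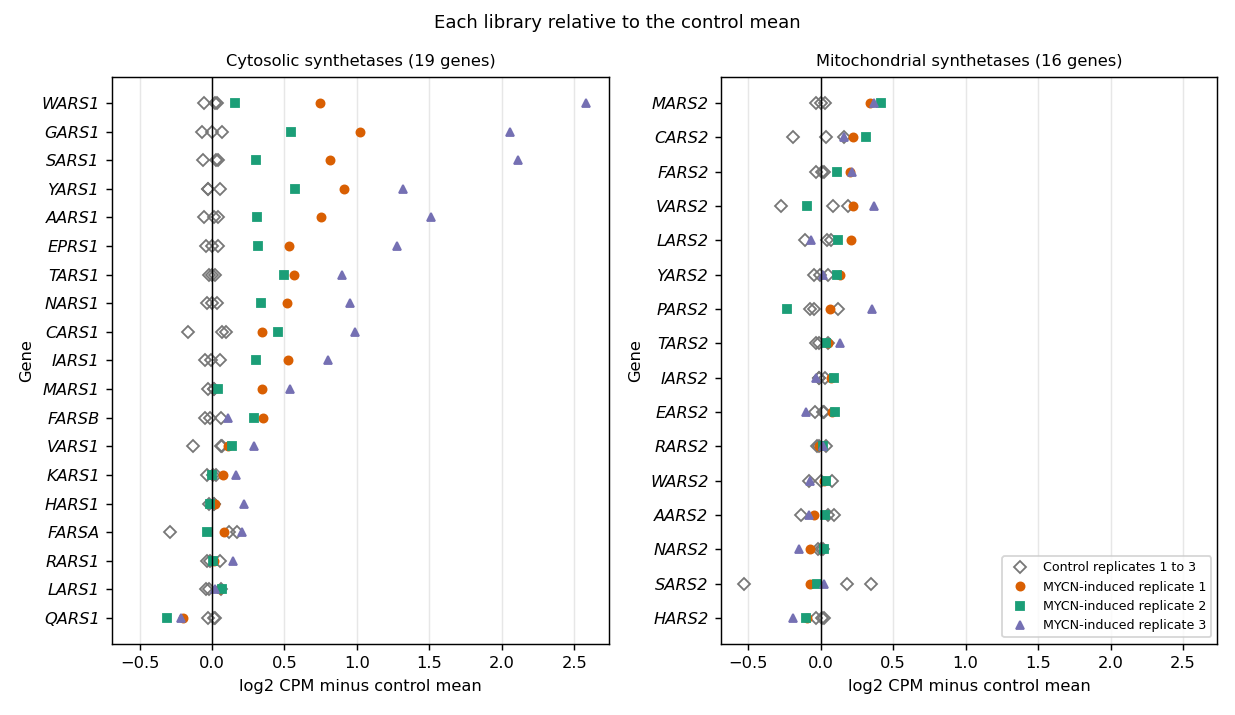
Difference of each library's log2 CPM from the control mean (horizontal axis, log2 units) for the 19 cytosolic and 16 mitochondrial genes, sorted by fitted change. MYCN-induced replicate 3 (triangles) is the highest induced library in 16 of 19 cytosolic genes and in 6 of 16 mitochondrial genes.

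The remaining cytosolic enzymes showed differences of 0.25 or less in size. *FARSB* and *FARSA* encode the beta and alpha chains of the phenylalanine enzyme, and their log2 fold changes were 0.25 (SE 0.08, adjusted p = 0.137) and 0.07 (SE 0.13, adjusted p = 0.819, edgeR). Both chains are needed for the enzyme. *FARSB* was 1 of 2 cytosolic genes with the lowest induced value in replicate 3, at 104, 99.9 and 88.2 CPM against controls of 85.1, 80.8 and 79.1 CPM, and it passed the threshold without that library (log2 fold change 0.33, adjusted p = 0.014, edgeR). The valine enzyme *VARS1* had a log2 fold change of 0.18, with every induced library above every control.

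*KARS1*, the lysine enzyme of both compartments, *HARS1*, the histidine enzyme, *RARS1* and the leucine enzyme *LARS1* had log2 fold changes of 0.08, 0.08, 0.06 and 0.05. The last of these is on the ATF4 list but had overlapping groups, at 371, 349 and 345 CPM in the controls and 369, 373 and 360 CPM in the induced libraries. *RARS1* was similarly even, with 186, 177 and 175 CPM in the controls and 181, 180 and 198 CPM in the induced libraries. *HARS1* stood at 113, 115 and 115 CPM in the controls and at 116, 113 and 133 CPM in the induced libraries, and *FARSA* at 61.1, 84.4 and 81.4 CPM and at 79.2, 73.1 and 86.3 CPM. None of these 4 genes had separate groups.

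*QARS1*, the glutamine enzyme and a subunit of the multisynthetase complex, was the only cytosolic member with a log2 fold change below 0. It was measured at 70.8, 70.5 and 68.6 CPM in the controls and at 61.0, 56.4 and 60.4 CPM after induction, so every induced library was below every control. Its log2 fold change of −0.24 (SE 0.06) had an adjusted p of 0.095 (edgeR), and without MYCN-induced replicate 3 it was −0.25 (adjusted p = 0.042), where 4.44% of all tested genes were lower.

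**Figure D3:**
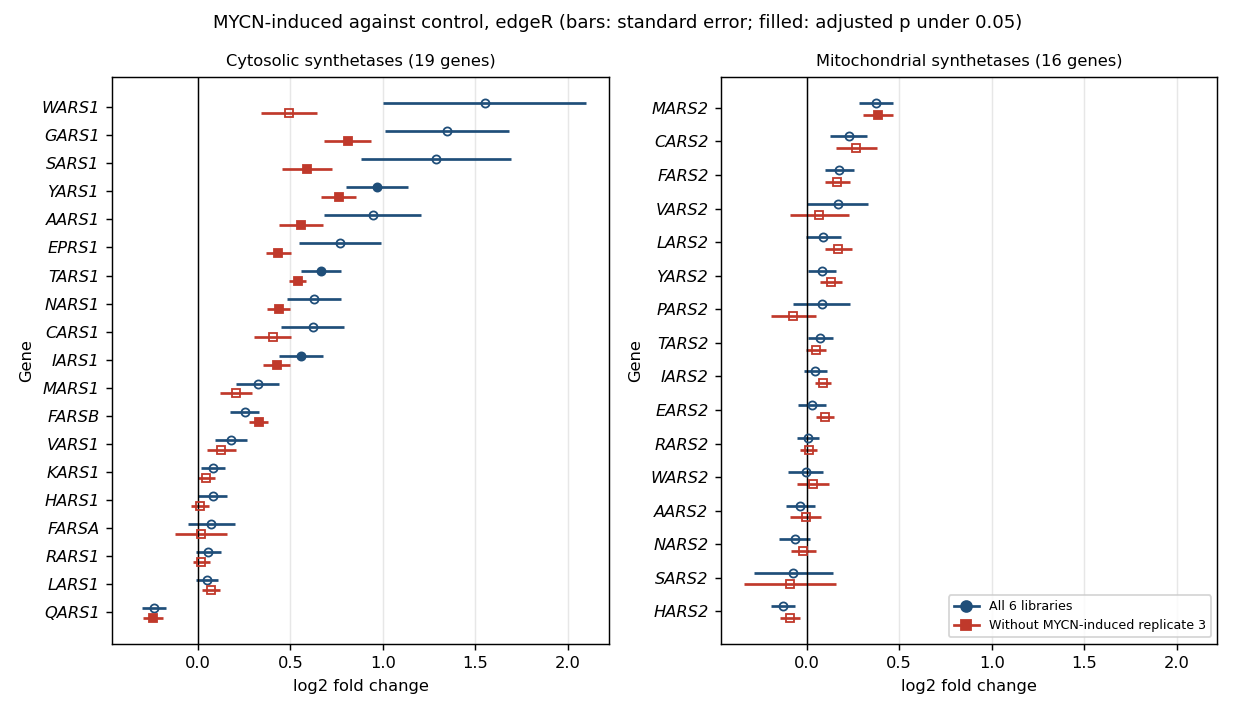
Fitted log2 fold change of MYCN-induced against control (horizontal axis) with its standard error for each synthetase gene, from all 6 libraries (circles) and without MYCN-induced replicate 3 (squares). Filled symbols have an adjusted p under 0.05 (edgeR), which 3 genes reach with all libraries and 11 genes without that library.

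None of the 16 mitochondrial enzymes passed the threshold in either direction by edgeR, while 2 had an unadjusted p under 0.05 and were higher, and 0 were lower, beside 8.13% and 10.6% of all tested genes. By DESeq2, 1 was higher and 0 were lower, against 3.11% and 4.12% of all genes. The log2 fold change was above 0 in 11 of 16, where 49.9% of all tested genes were, with a median of 0.06 and a range from −0.13 to 0.38. In 3 of 16 every induced library was above every control and in 1 every induced library was below, shares of 18.8% and 6.25% beside 11.5% and 14.7% of all tested genes.

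*MARS2*, the mitochondrial methionine enzyme, had the largest difference of this group. It stood at 7.18, 7.05 and 6.88 CPM in the controls and at 8.91, 9.38 and 9.09 CPM in the induced libraries. Both groups were tight and did not overlap, and MYCN-induced replicate 3 lay between the other two. Its log2 fold change was 0.38 (SE 0.09, adjusted p = 0.070, edgeR), with an adjusted p of 0.0027 by DESeq2 and of 0.034 by edgeR without MYCN-induced replicate 3.

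*CARS2*, the cysteine enzyme, was at 31.8, 37.3 and 40.6 CPM in the controls and at 42.5, 45.1 and 40.7 CPM after induction (log2 fold change 0.23, SE 0.10, adjusted p = 0.278, edgeR). *FARS2*, the phenylalanine enzyme, was at 19.4, 19.2 and 18.6 CPM and at 22.0, 20.6 and 22.1 CPM (0.18, SE 0.08, adjusted p = 0.266, edgeR). Their groups did not overlap, though in *CARS2* the highest control and the lowest induced library were nearly equal. *VARS2* was at 8.81, 8.21 and 6.40 CPM and at 9.05, 7.25 and 10.002 CPM (0.17, SE 0.16, edgeR), and it shares 63.0% of its exon bases with a read-through gene, so its counts are uncertain. The leucine enzyme *LARS2* overlapped too, at 29.4, 29.98 and 26.5 CPM in the controls and 33.0, 31.0 and 27.3 CPM in the induced libraries (0.09, SE 0.10).

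At the other end, the histidine enzyme *HARS2* was at 45.6, 47.0 and 47.5 CPM in the controls and at 43.8, 43.4 and 40.8 CPM in the induced libraries. Its groups did not overlap, with a log2 fold change of −0.13 (SE 0.07, adjusted p = 0.343, edgeR). The serine enzyme *SARS2* ranged more widely among its controls, at 3.68, 6.05 and 6.78 CPM, than among its induced libraries, at 5.05, 5.24 and 5.40 CPM (−0.07, SE 0.21), and 48.2% of its exon bases lie in an overlapping gene.

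The asparagine enzyme *NARS2* was measured at 15.9, 15.6 and 15.8 CPM and at 14.9, 15.97 and 14.2 CPM (−0.07, SE 0.08). The alanine enzyme *AARS2* was at 46.3, 54.1 and 52.5 CPM and at 49.2, 51.9 and 48.2 CPM (−0.03, SE 0.08). The tryptophan enzyme *WARS2* was at 10.3, 10.9 and 11.5 CPM and at 11.03, 11.1 and 10.3 CPM (−0.01, SE 0.09). In these 3 genes the control and induced libraries overlapped. The abundant *IARS2* overlapped as well, at 169, 164 and 164 CPM against 174, 176 and 162 CPM (0.04, SE 0.06). The other members, *YARS2*, *PARS2*, *TARS2*, *EARS2* and *RARS2*, had log2 fold changes from 0.01 to 0.09.

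Enzymes for the same amino acid were set side by side in 17 pairs, counting *EPRS1* with both *EARS2* and *PARS2* and both chains of the phenylalanine enzyme with *FARS2*. The log2 fold change of the cytosolic partner was the larger in 14 of 17 pairs, with a median difference of 0.51. The difference was largest for tryptophan (1.56), serine (1.36) and alanine (0.98). For these 3 the ratio of the partners was taken within each library, so that the library's scaling cancels. The ratio of *WARS1* to *WARS2* TPM was 5.16, 4.92 and 4.38 in the controls and 7.95, 5.26 and 30.3 in the induced libraries. For *SARS1* to *SARS2* it was 17.1, 10.3 and 8.65 in the controls and 21.4, 14.5 and 49.1 in the induced libraries, with induced replicate 2 inside the control range. For *AARS1* to *AARS2* it was 1.24, 1.08 and 1.04 in the controls and 1.94, 1.36 and 3.35 in the induced libraries. The cytosolic partner had the smaller value for methionine, leucine and the alpha chain of the phenylalanine enzyme.

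**Figure D4:**
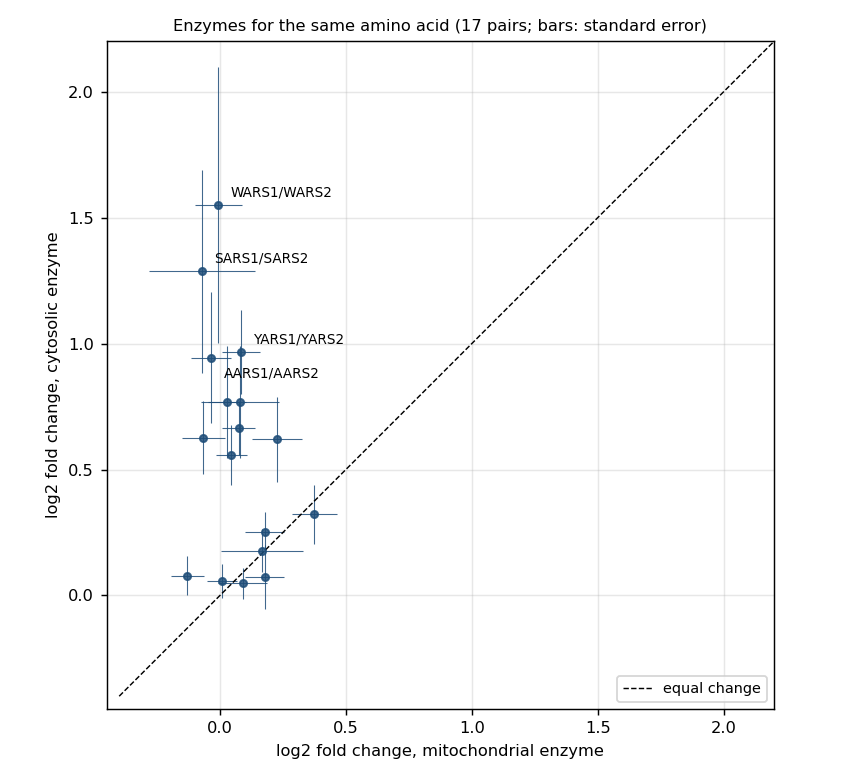
Log2 fold change of the cytosolic enzyme (vertical) against that of the mitochondrial enzyme for the same amino acid (horizontal) in 17 pairs, with standard errors, and the line of equal change. The pairs for tryptophan, serine, alanine and tyrosine are named, and 14 of 17 points lie above the line.

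Summed over genes, the ratio of cytosolic to mitochondrial synthetase TPM was 3.06, 3.04 and 2.9998 in the controls and 3.84, 3.36 and 5.70 in the induced libraries. The mitochondrial sum itself was 249, 272 and 203 TPM after induction, so in TPM it lay on both sides of the control range. In CPM scaled by TMM factors the sum was 626, 629 and 600 after induction, against 595, 607 and 599 in the controls. By that scaling no induced library fell below the control range. The difference between the 2 groups of enzymes was not tested, because the members were chosen with earlier results known.

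The spread between induced libraries was wide for the cytosolic enzymes. The median coefficient of variation was 3.50% among the controls and 16.99% among the induced libraries for cytosolic genes, and 16 of 19 varied more after induction. For mitochondrial genes it was 3.13% and 4.20%. Replicate 3 was the highest of the induced libraries in 16 of 19 cytosolic genes and replicate 2 the lowest in 15. Relative to the control mean, the median cytosolic gene stood at 0.35, 0.29 and 0.80 log2 units in MYCN-induced replicates 1, 2 and 3, and the median mitochondrial gene at 0.07, 0.03 and 0.02. *MYCN* itself was lowest in induced replicate 3, at 199 CPM.

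The 12 cytosolic synthetases described as ATF4 targets are given apart from the other 7, without a test of the difference between them. All 12 had a log2 fold change above 0, with a median of 0.72, and they include the 3 genes past the threshold, where 1.02% of all tested genes were higher. In 11 of 12 every induced library was above every control, against 11.5% of all tested genes. Among the other 7 cytosolic genes the median was 0.08 and none passed the threshold by edgeR or DESeq2. At an unadjusted p under 0.05 (edgeR), 1 was higher and 1 was lower, beside 8.13% and 10.6% of all tested genes. In 2 of these 7 every induced library was above every control, and in 1 below, beside 11.5% and 14.7% of all tested genes. The TPM ratio of the ATF4 list to the other cytosolic genes was 1.51, 1.41 and 1.41 in the controls and 2.07, 1.80 and 3.16 in the induced libraries. Without MYCN-induced replicate 3 the medians were 0.46 and 0.02. In that setting 8 of the 12 were higher at the threshold, and of the other 7 *FARSB* was higher and *QARS1* lower, beside 3.68% and 4.44% of all tested genes.

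The enzymes were also grouped by complex and by structural class. The 7 members of the multisynthetase complex had a median log2 fold change of 0.08, with 1 gene higher (*IARS1*) and values from −0.24 (*QARS1*) to 0.77 (*EPRS1*). The 18 class I enzymes, defined by the fold of their catalytic domain and drawn from both compartments, had a median of 0.13 with 2 higher, and the 16 class II enzymes, also from both compartments, had 0.08 with 1 higher. These counts are by edgeR, where 1.02% of all tested genes were higher. By DESeq2, 2, 4 and 4 enzymes of the complex, class I and class II were higher, beside 3.11% of all tested genes. No enzyme of these 3 lists was lower by edgeR or DESeq2, where 2.38% and 4.12% of all tested genes were lower. The fused enzyme *EPRS1*, which was higher by DESeq2, was placed in neither class list.

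Other genes of the ATF4 pathway were taken from a list of 24 that holds no synthetases. Of the 23 tested, 5 passed the threshold and were higher, against 1.02% of all tested genes, none was lower by edgeR at either p or by DESeq2, 22 were above 0 and the median log2 fold change was 1.601. *ATF4* itself was at 189, 189 and 204 CPM in the controls and at 319, 300 and 547 CPM in the induced libraries (log2 fold change 1.01, SE 0.21, adjusted p = 0.047, edgeR). The others were *SLC7A11*, the cystine transporter (3.52, adjusted p = 0.049), *PHGDH*, the first enzyme of serine synthesis (2.09, adjusted p = 0.048), *MTHFD2*, a mitochondrial folate enzyme (1.70, adjusted p = 0.028), and *SLC7A1*, a transporter of cationic amino acids (1.44, adjusted p = 0.039, edgeR). Without MYCN-induced replicate 3, 16 of 23 were higher, against 3.68% of all tested genes, and the median was 0.77. Without MYCN-induced replicate 2, 8 were higher, against 0.589% of all tested genes, and without MYCN-induced replicate 1 or any single control none was, while the median stayed between 1.45 and 1.93. *PSAT1*, another enzyme of serine synthesis, did not pass the filter, at 0.210 CPM or less in every library.

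**Figure D5:**
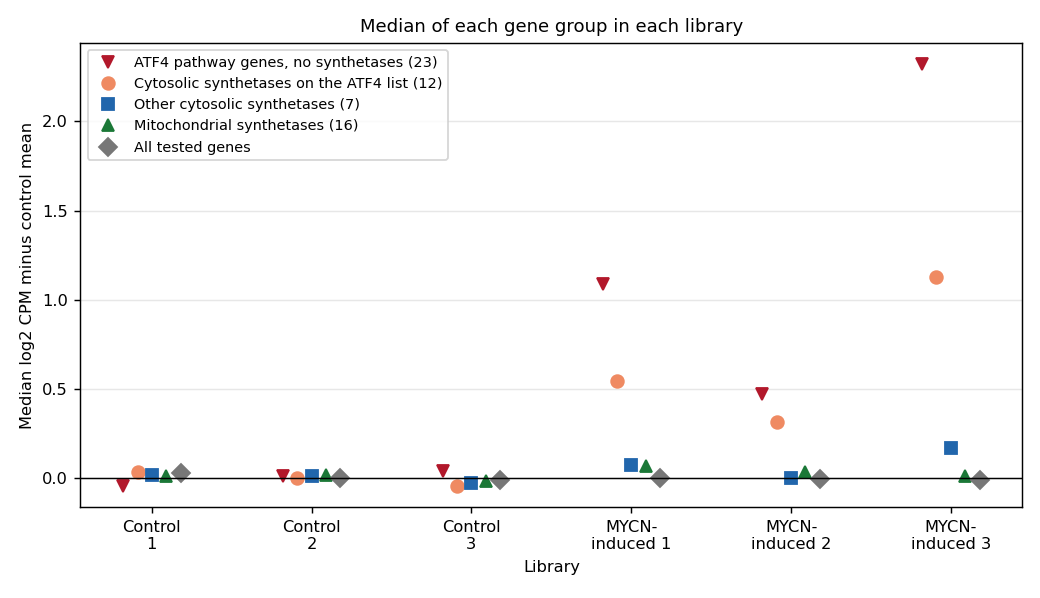
Median difference from the control mean (log2 CPM, vertical axis) in each of the 6 libraries for the ATF4 pathway genes, the 12 cytosolic synthetases on the ATF4 list, the other 7 cytosolic synthetases, the 16 mitochondrial synthetases and all tested genes. In MYCN-induced replicates 1, 2 and 3 the ATF4 pathway genes stand at 1.09, 0.47 and 2.32 and the listed synthetases at 0.55, 0.31 and 1.13, while all tested genes stay near 0.

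Across the 6 libraries, the companion genes whose log2 CPM followed the cytosolic mean most closely were *CEBPG*, a C/EBP family factor (r = 0.998), *SLC3A2*, the heavy chain of amino acid transporters (r = 0.998), and *SHMT2*, a mitochondrial serine enzyme (r = 0.997). These are descriptions over 6 libraries that share the contrast between conditions and the position of MYCN-induced replicate 3. For the mitochondrial mean the closest were *DTD2* (r = 0.872), *DTD1* (r = 0.793) and *TUFM* (r = 0.777).

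Proteins that work beside the synthetases were measured as well. *XPOT*, the export receptor that carries tRNA out of the nucleus, rose from 242, 233 and 226 CPM to 345, 324 and 445 CPM (log2 fold change 0.67, SE 0.12, adjusted p = 0.028, edgeR), the only one of 5 tRNA maturation and export genes past the threshold. *QRSL1*, a subunit of the mitochondrial amidotransferase that makes glutaminyl-tRNA, rose from 29.3, 28.9 and 26.9 CPM to 36.2, 36.8 and 37.1 CPM (0.37, SE 0.07, adjusted p = 0.036, edgeR). Its partner subunits *GATB* and *GATC* had log2 fold changes of 0.05 and −0.04, and the formyltransferase *MTFMT* had −0.05. At the edgeR threshold 1.02% of all tested genes were higher. Without MYCN-induced replicate 1 or any single control, neither *XPOT* (adjusted p from 0.072 to 0.150) nor *QRSL1* (0.093 to 0.195) passed (edgeR), and *QRSL1* did not without MYCN-induced replicate 2 (0.077).

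The scaffold proteins of the multisynthetase complex, *AIMP1*, *AIMP2* and *EEF1E1*, had log2 fold changes of 0.18, 0.34 and 0.16, none past the threshold by edgeR or DESeq2, with 2 of 3 at an unadjusted p under 0.05. Of the 9 elongation factors none passed by edgeR, 2 had an unadjusted p under 0.05 and 1 passed by DESeq2. The largest difference among them was that of *EEF1A2*, a tissue-restricted form of elongation factor 1 alpha (1.0001, SE 0.27, adjusted p = 0.096, edgeR). None of the 3 proofreading genes passed by edgeR, 1 had an unadjusted p under 0.05 and 1 passed by DESeq2, and the largest difference was that of *DTD1* (0.32, adjusted p = 0.088, edgeR). Of the 5 genes of the selenocysteine tRNA pathway, none passed by edgeR or DESeq2 and 0 had an unadjusted p under 0.05, with *EEFSEC* the largest in size (−0.21, SE 0.21). At that unadjusted p, 8.13% of all tested genes were higher and 10.6% lower (edgeR), and by DESeq2 3.11% and 4.12%. At the edgeR threshold the shares were 1.02% and 2.38%.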

How the data were processed

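Total RNA was depleted of ribosomal RNA, made into paired-end stranded libraries and sequenced from 3 control and 3 MYCN-induced cultures. The authors aligned reads to GRCh38 with STAR 2.7.1a and counted them over exons per gene; the estimated counts the authors deposited are fractional for reads that touch several genes. Methods and labels name featureCounts 1.5.1 with a strand option, whereas the file headers name 1.6.4 without one, so antisense overlap cannot be separated.

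After rounding, 29086 genes reached 10 counts in 3 or more libraries and entered the test of edgeR 4.0.16 (TMM, quasi-likelihood, group only, Benjamini-Hochberg over all tested genes, threshold 0.05) in R 4.3.3; scripts were tested on simulated data. DESeq2 1.42.0, the tool of the study, was an alternative, as were other scalings, filters, a replicate block, an adjusted p of 0.1 and leaving out each library. The 92 spike-in sequences held no counts and were left out. Gene names came from GENCODE 44 (99.7% of identifiers matched), coordinates from the files. CPM used TMM library sizes; TPM used the length in the files. Of 35 members, 21 share exon bases with another gene, 5 of them over 10% (*VARS2*, *SARS2*, *YARS2*, *MARS1* and *WARS1*).

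Members and lists were chosen from general knowledge with earlier results of these data known. Values are given for members past the threshold, the 5 largest rises and falls per group, the 3 most different pairs, and the most and least abundant members; of other lists, genes past the threshold or the largest change. *NARS1*, *EPRS1*, *MARS1*, the small changes of other members and all named marker genes except *FN1* and *CHGA* were added after their values were seen. P-values measure the spread between these libraries only.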

Additional observations from a re-analysis of the deposited data

How the results depend on the processing

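The number of calls depended on single libraries and on the tool. By DESeq2, 904 genes were higher and 1199 lower, with 8 cytosolic and 1 mitochondrial synthetase higher, and 43.0% of all calls were higher against 30.1% by edgeR. Without a filter on low counts 470 genes and 8 cytosolic synthetases were higher. At an adjusted p under 0.1, 706 genes were higher and 1242 lower, with 6 cytosolic synthetases higher, 1 lower and 1 mitochondrial higher. Leaving out 1 library gave 18 to 1060 higher and 72 to 1279 lower genes, 0 to 9 higher and 0 to 1 lower cytosolic and 0 to 1 higher mitochondrial synthetases; 45.3% of calls were higher without MYCN-induced replicate 3. The median log2 fold change of mitochondrial synthetases was 0.03 by library size only (0.0261) and by upper-quartile factors (0.0291). The cause was not tested for any of these.

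The cytosolic median stayed between 0.40 and 0.67 under all 13 alternatives. Same-numbered libraries deviated with correlations of 0.216, −0.019 and 0.074, and differently numbered ones with −0.193 to 0.082. With only 3 libraries per group, these values cannot decide whether the numbers pair the samples. With a replicate block *CARS1* passed (adjusted p = 0.047), *IARS1* did not (0.056), and 265 genes were higher; not every library correlated best with its own number. Signs changed, with no call, for *EARS2* (−0.0018 by library size only, −0.0020 by upper quartile), *RARS2* (−0.026 and −0.024 by these scalings, −0.0022 at a mean of 100 counts) and *WARS2* (0.0094 with DESeq2 size factors, 0.0095 by DESeq2, 0.0078 without a filter). On leaving out 1 library the log2 fold change also crossed 0 for *EARS2* (−0.010 to 0.097), *RARS2* (−0.0087 to 0.024), *WARS2* (−0.051 to 0.034), *FARSA* (−0.065 to 0.156), *AARS2* (−0.104 to 0.0075), *SARS2* (−0.299 to 0.105) and *PARS2* (−0.073 to 0.2175).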
